A study of Mus musculus with 3 samples.

Results

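The genes of elastic fibres were followed in lung homogenates of mice exposed to particles, with or without allergic sensitisation. They were taken by gene symbol and comprised 10 genes (Eln, Fbn1, Fbn2, Fbln1, Fbln2, Fbln5, Efemp2, Lox, Loxl1 and Mfap4) of the 23183 with a value in each library. All 10 were listed, and 9 reached 1 FPKM (reads or fragments scaled to transcript kilobases and to 1000000 mapped ones) in every library; Fbn2 reached it in none.

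Female BALB/c mice made up all groups, aged 10 weeks by one label and 5 to 6 weeks on arrival by another, with 5 mice assigned per group. The OVA+PM10 sample came from mice that were given PM10 particles and were also sensitised to ovalbumin (OVA, an egg-white protein used to model allergic asthma) with aluminium hydroxide and challenged through the nose on days 21, 22 and 23. The labels put the first of 2 injections of 20 µg OVA on day 0 or day 1 and the second on day 14. The PM10 sample came from mice given the particles alone, a certified reference dust, through the nose 4 times in 2 weeks in 20 µL saline. The labels name doses of 100 and 200 µg without saying which was sequenced. Mice named only as control in the labels and with no vehicle given, supplied the control sample, and the labels do not say whether a library held RNA of 1 mouse or of several. Mice given OVA without particles were not analysed here. With 1 library per group there was no test and no replicate error, so each ratio below compares libraries and not conditions.

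Elastic fibres give the lung its recoil. Each has a core of elastin, secreted as soluble tropoelastin, that is laid down on a scaffold of fibrillin microfibrils. Fibulins bring elastin, microfibrils and the lysyl oxidases together, and the lysyl oxidases crosslink elastin into an insoluble polymer. In the lung, fibroblasts, smooth muscle cells and vessel wall cells make most of these proteins, much of it during development and postnatal growth.

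The estimated depth was about 15.4, 13.3 and 19.6 times 1000000 reads in the OVA+PM10, PM10 and control libraries, from the smallest steps between low values. Surfactant and other alveolar epithelial markers were abundant in all 3 libraries (summed 30140, 65450 and 28498 FPKM), in keeping with the label lung. The control sample also held markers of other tissues: the 15 skeletal muscle genes summed to 41.4 FPKM in the OVA+PM10 sample, 28.7 in the PM10 sample and 5333 in the control sample, and 15 squamous epithelium genes to 3.37, 2.23 and 6219 FPKM. The 14 adipocyte markers summed to 212, 153 and 519 FPKM and the 12 cardiac muscle markers to 385, 210 and 954 FPKM. Airway club cell markers were abundant throughout (71505, 56606 and 46956 FPKM). Of 6 measured mesothelial markers 4 were at least 2-fold lower in each exposed sample than in control. Of all genes, 13.9% were lower in the PM10 sample and 8.68% in the OVA+PM10 sample. None of the 10 listed cartilage markers reached 1 FPKM, and Upk3b, the mesothelial uroplakin, stood at 0 FPKM in the OVA+PM10 sample, 0.149 in the PM10 sample and 17.4 in the control sample. What the other tissues in the control sample contributed to the elastic fibre genes was not tested. Leaving their markers out and rescaling moved no elastic fibre gene across the 2-fold threshold. That step shifts all other genes nearly alike, so it cannot remove elastic fibre RNA that came from those tissues.

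Elastin was about 2-fold higher in both exposed samples than in the control sample, while fibulin-1 and fibulin-2 were lower, most of all with particles alone. Eln, which encodes the elastin core (chromosome 5, 134702593 to 134747323, mm10, minus strand), stood at 80.3 FPKM in the OVA+PM10 sample, 82.0 FPKM in the PM10 sample and 37.9 FPKM in the control sample. Both exposed libraries thus lay at nearly the same elastin level, a little over 2-fold above the control. On the log2 scale of FPKM + 1, on which all log2 ratios here are given, the ratio was 1.06 for OVA+PM10 over control, 1.09 for PM10 over control and -0.03 for OVA+PM10 over PM10. By level, Eln stood above 92.6% of the genes with at least 1 FPKM in the OVA+PM10 sample, 90.1% in the PM10 sample and 85.7% in the control sample.

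Directions are read from the median gene, which had a log2 ratio of 0.02 for PM10 over control, -0.0017 for OVA+PM10 over control and -0.03 for OVA+PM10 over PM10. If each library is scaled to the same sum, the median gene moves to -1.03, -0.58 and 0.49, and Eln stands at -0.13, 0.43 and 0.56, which is 0.91, 1.01 and 0.07 above that median. On that scale Eln and Efemp2 are below 0 in PM10 over control, as are Lox, Loxl1 and Fbln5, while all 5 stay above the median gene.

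**Figure D1:**
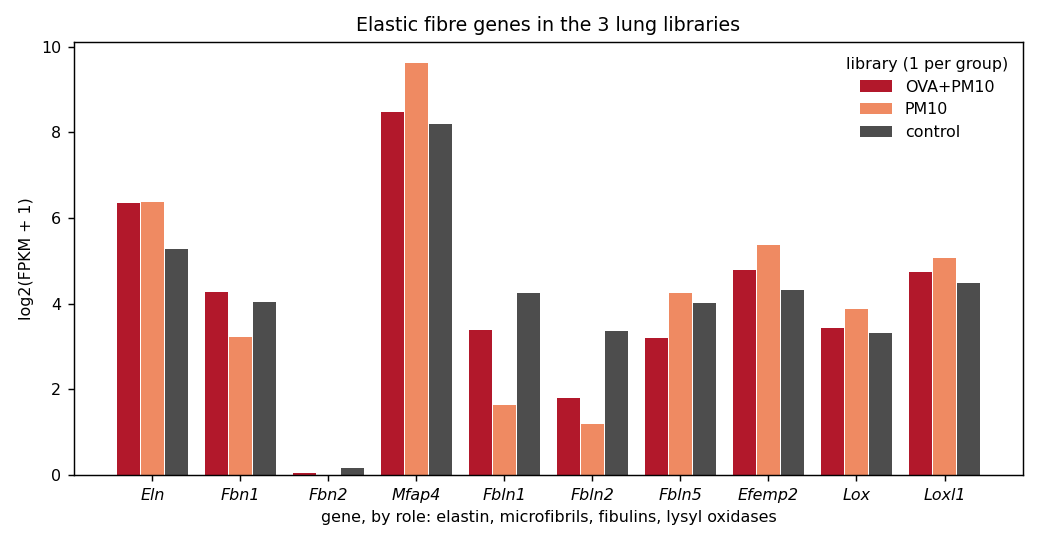
Level of each elastic fibre gene, as log2(FPKM + 1), in the OVA+PM10, PM10 and control libraries, 1 library per bar and no replicates. Eln stands at 80.3 and 82.0 FPKM in the exposed libraries against 37.9 FPKM in control, while Fbln1 and Fbln2 are lowest in the PM10 sample; the bars are not scaled to a common sum, and on that scale Eln is below control in the PM10 sample.

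Fbn1, which encodes fibrillin-1, the main microfibril protein of adult tissue (chromosome 2, 125300594 to 125507993, minus strand), stood at 18.2 FPKM in the OVA+PM10 sample, 8.29 in the PM10 sample and 15.4 in the control sample. The PM10 sample was thus the low one, with log2 ratios of 0.23 for OVA+PM10 over control, -0.82 for PM10 over control and 1.05 for OVA+PM10 over PM10. Fbn1 has the longest transcript of the group (11971 bases), and ratios followed transcript length: the tenth of genes with the longest transcripts had a median log2 ratio of -0.77 for PM10 over control, and the tenth with the shortest one of 1.08. With the trend over length removed, Fbn1 stood at 0.63, 0.15 and 0.47 in the same order of comparisons. Fbn2, whose protein fibrillin-2 is mainly a developmental microfibril protein, had 0.04 FPKM in the OVA+PM10 sample, was listed at 0 in the PM10 sample and had 0.13 FPKM in the control sample. At these depths that corresponds to about 6.79 reads in the OVA+PM10 sample and 28.1 in the control sample if the longest annotated transcript is taken, and no ratio is given.

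Mfap4, a fibrinogen-related glycoprotein of microfibrils that binds tropoelastin and fibrillin-1 (chromosome 11, 61485431 to 61488900, plus strand), was the most abundant member. It had 357 FPKM in the OVA+PM10 sample, 786 FPKM in the PM10 sample and 292 FPKM in the control sample. In the values as deposited, the PM10 sample stood alone at more than 2-fold above both others. The log2 ratios were 0.29 for OVA+PM10 over control, 1.43 for PM10 over control and -1.14 for OVA+PM10 over PM10. Its longest transcript is short (1770 bases), and with the length trend removed these became 0.04, 0.95 and -0.96, so that no ratio passed 2-fold. Scaled to the same sum, the ratios of Mfap4 were -0.36, 0.19 and -0.54 in the same order, also within 2-fold. Mapk7 overlaps Mfap4 on the other strand and stood at 4.68 FPKM in OVA+PM10, 3.92 in PM10 and 4.57 in control. The use of strand in counting is not stated, and how far reads of both genes mix was not tested.

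The fibulins divided most clearly. Fibulin-1 and fibulin-2 bind elastin, fibrillin and basement membrane proteins, whereas fibulin-5 and fibulin-4 (encoded by Efemp2) are the fibulins required for elastic fibre assembly in mice, through tropoelastin and lysyl oxidase. The RefSeq promoter table (build GRCm38.p6) held 5 of the 10 genes, the 4 fibulin genes among them. The 250 bases before the start site nearest to the annotated gene start are shown, 5′ to 3′ on the strand of the gene, because these 4 genes of 1 family had their low and high values in different libraries. Capitals mark GGGCGG on either strand, the GC box bound by Sp1 family factors.
Fbln1, chr15:85205699-85205948, plus strand: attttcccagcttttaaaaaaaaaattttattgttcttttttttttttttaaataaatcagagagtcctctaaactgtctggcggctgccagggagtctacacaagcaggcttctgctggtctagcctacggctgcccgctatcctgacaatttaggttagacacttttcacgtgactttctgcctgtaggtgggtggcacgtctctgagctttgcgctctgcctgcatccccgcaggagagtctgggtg
Fbln2, chr6:91212514-91212763, plus strand: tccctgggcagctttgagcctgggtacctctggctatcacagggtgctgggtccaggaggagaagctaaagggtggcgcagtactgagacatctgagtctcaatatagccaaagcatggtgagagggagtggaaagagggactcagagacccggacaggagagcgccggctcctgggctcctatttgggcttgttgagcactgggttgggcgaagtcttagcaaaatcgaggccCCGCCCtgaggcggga
Fbln5, chr12:101819120-101819369, minus strand: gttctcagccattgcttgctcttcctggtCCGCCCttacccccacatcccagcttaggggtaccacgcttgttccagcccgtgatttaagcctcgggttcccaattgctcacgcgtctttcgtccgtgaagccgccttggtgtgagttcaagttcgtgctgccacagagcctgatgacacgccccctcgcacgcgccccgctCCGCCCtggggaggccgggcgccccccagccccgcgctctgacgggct
Efemp2, chr19:5473696-5473945, plus strand: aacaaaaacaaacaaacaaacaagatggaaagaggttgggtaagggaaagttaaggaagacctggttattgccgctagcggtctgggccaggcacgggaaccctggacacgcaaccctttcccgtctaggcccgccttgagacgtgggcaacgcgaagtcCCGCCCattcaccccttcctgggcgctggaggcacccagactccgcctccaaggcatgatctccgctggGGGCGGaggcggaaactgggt
The Fbln1 window held no GGGCGG, the Fbln2 window 1, and the Fbln5 and Efemp2 windows 2 each, and 32.7% of all 32851 promoter windows of this length hold at least 1. The second Fbln1 start in the table, 59 bases downstream, has a window with 1 match. A second Fbln5 start, 571 bases from the annotated gene start, has none, and Efemp2 starts at 736 and 781 bases have 5 each. The counts thus depend on the start taken. None of the 4 windows shown held TATAAA (12.4% of all windows), TGANTCA (6.75%) or CATTCC (12.6%), searched on both strands. CCAAT (33.8%) occurred in the Fbln5 window shown and CAGACA (17.1%) in the Fbln1 window shown. These matches describe the letters of the windows and no binding was measured.

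Fbln1 (chromosome 15, 85205949 to 85286535) stood at 9.47 FPKM in the OVA+PM10 sample, 2.13 FPKM in the PM10 sample and 18.2 FPKM in the control sample. The PM10 sample was 8.53-fold below control and the OVA+PM10 sample 1.92-fold below it, with log2 ratios of -2.61 and -0.88, and OVA+PM10 over PM10 stood at 1.74. Fbln2 (chromosome 6, 91212455 to 91272540) stood at 2.51 FPKM in the OVA+PM10 sample, 1.30 in the PM10 sample and 9.36 in the control sample. Both exposed libraries were low, with log2 ratios of -1.56 for OVA+PM10 over control and -2.17 for PM10 over control, and 0.61 between the exposed libraries. The PM10 values correspond to about 104 reads for Fbln1 and 83.0 for Fbln2 if the longest transcripts are taken. Removal of the length trend left both more than 2-fold below control in the PM10 sample (-2.56 and -1.89).

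Fbln5 (chromosome 12, 101746565 to 101819055) stood at 8.18 FPKM in the OVA+PM10 sample, 18.0 FPKM in the PM10 sample and 15.2 FPKM in the control sample. Here the OVA+PM10 sample was the low one, at log2 ratios of -0.82 against control and -1.05 against PM10, while PM10 over control was 0.23. Efemp2 (chromosome 19, 5473954 to 5482517) stood at 26.5 FPKM in the OVA+PM10 sample, 40.1 in the PM10 sample and 18.9 in the control sample. The PM10 sample was the high one, with log2 ratios of 0.46 for OVA+PM10 over control, 1.05 for PM10 over control and -0.58 for OVA+PM10 over PM10; for PM10 over control it fell short of 2-fold with the length trend removed (0.90) and with 5 FPKM added to each value (0.92), and lay at -0.15 scaled to the same sum. Mus81 overlaps Efemp2 on the other strand and was also highest in the PM10 sample, at 13.8 FPKM in OVA+PM10, 17.1 in PM10 and 8.49 in control, and how far reads of the 2 genes mix was not tested.

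In the values as deposited, the lysyl oxidases differed least among the libraries. Scaled to the same sum, Efemp2 differed least instead, at -0.15 for PM10 over control, -0.16 for OVA+PM10 over control and -0.0057 for OVA+PM10 over PM10. Lox, which crosslinks both elastin and collagen (chromosome 18, 52516067 to 52529867), stood at 9.89 FPKM in the OVA+PM10 sample, 13.8 in the PM10 sample and 8.95 in the control sample. Loxl1, the family member needed to maintain elastic fibres in adult mice (chromosome 9, 58287738 to 58313186), stood at 25.8, 32.4 and 21.2 FPKM. Both were highest in the PM10 sample and lowest in the control sample, and both stayed within 2-fold in each comparison. Their log2 ratios for PM10 over control were 0.57 and 0.59, and for OVA+PM10 over control 0.13 and 0.27; scaled to the same sum, both were below 0 in these comparisons. The ratio of Loxl1 to Lox was 2.61 in the OVA+PM10 sample, 2.35 in the PM10 sample and 2.37 in the control sample.

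Counted together for PM10 over control, 3 of the 9 measured genes were at least 2-fold higher (Eln, Efemp2 and Mfap4) and 2 at least 2-fold lower (Fbln1 and Fbln2). Over all genes with at least 1 FPKM in either library, 13.6% were higher and 13.9% lower by the same rule. The median of the 9 log2 ratios was 0.57, and that of all genes 0.02. Scaled to the same sum, no elastic fibre gene was at least 2-fold higher and 3 were lower, Fbn1 being the one added, when 262 of all genes were higher and 7392 lower, against 1869 and 1907 without that scaling. Scaled by the median ratio, Eln (0.99) and Efemp2 (0.95) fell just short of 2-fold.

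For OVA+PM10 over control, 1 of 9 was at least 2-fold higher (Eln) and 1 lower (Fbln2), and the median was 0.23. The shares over all genes were 9.95% and 8.68%, so the count of elastic fibre genes called was close to that background. With 5 FPKM added to each value, Eln (0.99) and Fbln2 (-0.93) fell short of 2-fold. Scaled to the same sum, none was higher and 3 were lower (Fbln1, Fbln2 and Fbln5), when 652 of all genes were higher and 3560 lower, against 1381 and 1204.

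For OVA+PM10 over PM10, 2 of 9 were at least 2-fold higher (Fbn1 and Fbln1) and 2 lower (Fbln5 and Mfap4), against 11.8% and 9.00% of all genes, and the median was -0.32. In this pair neither library held the skeletal muscle and squamous genes at the level of the control. Of 11 measured adipocyte markers, however, 6 were at least 2-fold higher in the OVA+PM10 sample and 1 lower. Cfd had 56.5 against 0.189 FPKM, and Lpl, the lower one, 20.7 against 88.0 FPKM. What this difference contributed to the elastic fibre genes was not tested. Scaled to the same sum, 2 elastic fibre genes were higher and none lower, when 3354 of all genes were higher and 341 lower, against 1604 and 1220. The comparisons share libraries in pairs, so their values are not independent, and both comparisons with control rest on the same control library.

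**Figure D2:**
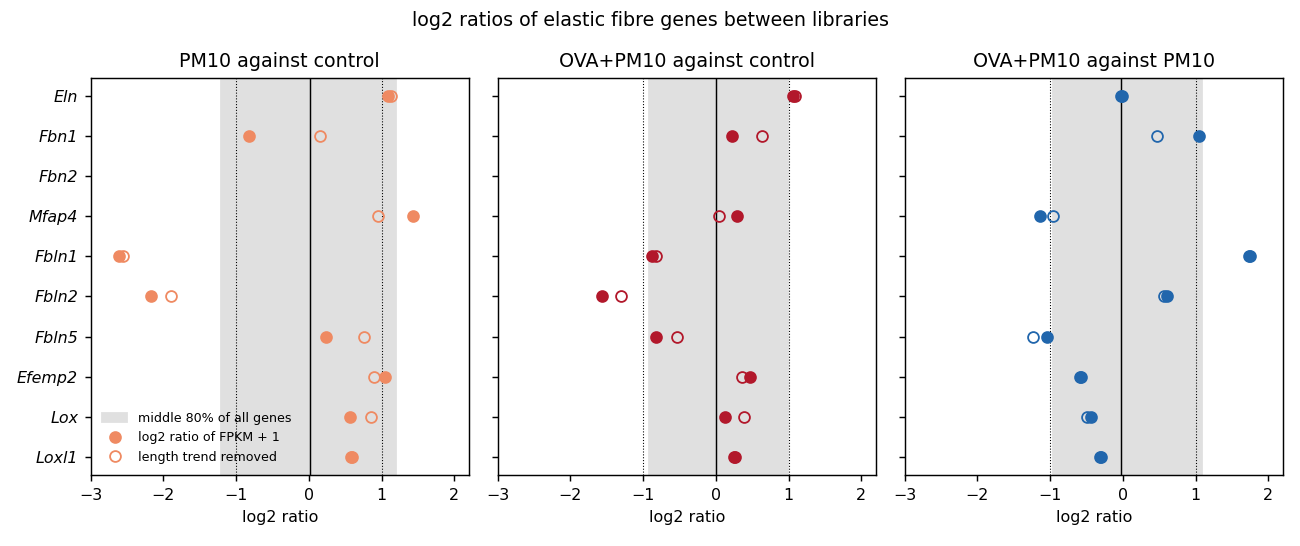
Log2 ratios of FPKM + 1 for the 9 measured elastic fibre genes in 3 comparisons of single libraries (filled points), the same with the trend over transcript length removed (open points), the middle 80% of all genes (grey), the median gene (solid line) and the 2-fold thresholds (dotted). Fbln1 at -2.61 and Fbln2 at -2.17 lie outside the grey band for PM10 over control, and Fbn1 moves from -0.82 to 0.15 when the length trend is removed; scaled to the same sum, Eln and Efemp2 would lie at -0.13 and -0.15.

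Ratios between genes inside a library do not depend on how libraries are scaled. Elastin stood 4.41-fold above fibrillin-1 in the OVA+PM10 sample, 9.89-fold in the PM10 sample and 2.46-fold in the control sample. Against fibulin-1, elastin stood at 8.48, 38.4 and 2.08 in the same order. The PM10 sample therefore had the highest elastin relative to both partners, the control sample the lowest. Efemp2 and Fbln1 were nearly equal in the control sample (ratio 1.04) and stood at 2.79 in the OVA+PM10 sample and 18.8 in the PM10 sample. The ratio of Fbln5 to Fbln1 was 0.864 in the OVA+PM10 sample, 8.43 in the PM10 sample and 0.835 in the control sample, so that OVA+PM10 and control lay together and PM10 apart. Elastin relative to Fbln5 had another order, with 9.82 in the OVA+PM10 sample, 4.56 in the PM10 sample and 2.50 in the control sample. Relative to elastin, Loxl1 stood at 0.321, 0.395 and 0.560 and Lox at 0.123, 0.168 and 0.236, lower in both exposed libraries. These ratios are not corrected for the trend over transcript length, which for PM10 over control moved Fbn1, Fbln5 and Mfap4 most (Fbln5 from 0.23 to 0.75).

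**Figure D3:**
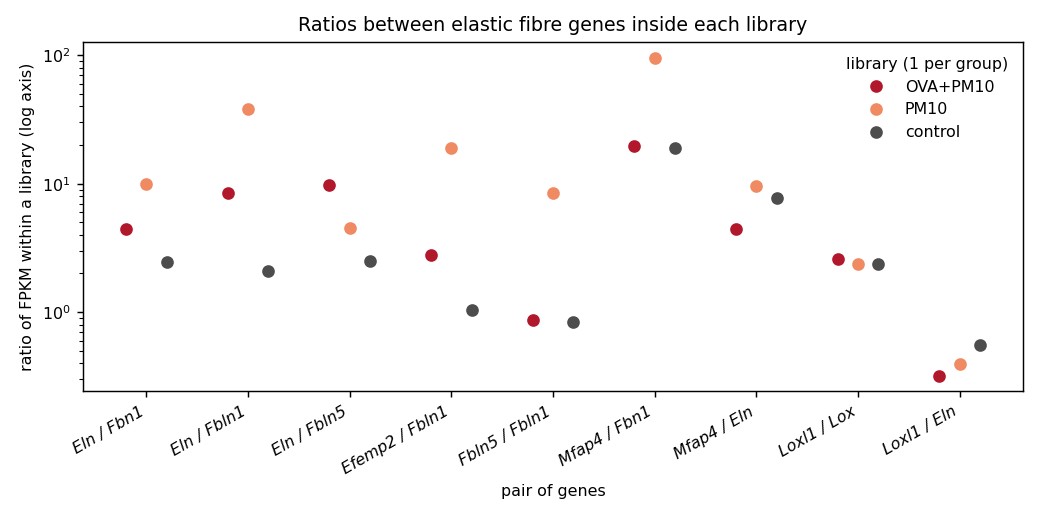
FPKM of one elastic fibre gene divided by that of another in the same library (log axis), for 9 pairs, 1 point per library. The ratio of Eln to Fbln1 is 8.48 in OVA+PM10, 38.4 in PM10 and 2.08 in control, while that of Loxl1 to Lox stays between 2.35 and 2.61.

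By level, Mfap4 and Eln were first and second in all 3 libraries, and Fbn2 last. Mfap4 made up 66.3% of the summed FPKM of the 10 genes in the OVA+PM10 sample, 79.9% in the PM10 sample and 66.8% in the control sample. In the OVA+PM10 sample the order went on with Efemp2, Loxl1, Fbn1, Lox, Fbln1, Fbln5 and Fbln2. In the PM10 sample it was Efemp2, Loxl1, Fbln5, Lox, Fbn1, Fbln1 and Fbln2, and in the control sample Loxl1, Efemp2, Fbln1, Fbn1, Fbln5, Fbln2 and Lox. Fbln1 thus held place 8 of 10 in the PM10 sample, against place 5 in the control sample. Without replicates, neighbours as close as Efemp2 and Loxl1 in the OVA+PM10 sample (26.5 and 25.8 FPKM) cannot be ordered.

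The wider list of microfibril, fibulin, latent TGF-beta binding protein, EMILIN and lysyl oxidase genes held 24 measured genes of 29. For PM10 over control none was at least 2-fold higher and 4 were lower, with a median of -0.27, where 13.9% of all genes were lower. For OVA+PM10 over control none was higher and 5 were lower, with a median of -0.50, where 8.68% of all genes were lower. Ltbp4, which binds fibulins and is required for elastic fibre assembly, had 31.4 FPKM in the OVA+PM10 sample, 14.3 in the PM10 sample and 75.5 in the control sample, the order of Fbn1 and Fbln1 between the exposed libraries. The other 3 lower for PM10 over control were Hmcn1 (hemicentin-1, at 1.34 against 6.82 FPKM), Tnxb (tenascin-X, 2.34 against 9.60 FPKM) and Atp7a, the copper transporter that supplies lysyl oxidases (3.53 against 11.5 FPKM). Hmcn1 and Tnxb have long transcripts (17908 and 12209 bases). For OVA+PM10 over control, Tnxb (3.09 FPKM), Efemp1, which encodes fibulin-3 (16.6 against 44.8 FPKM), Adamts10 (4.01 against 9.54 FPKM) and Adamtsl4 (2.90 against 7.80 FPKM), both of which bind fibrillin microfibrils, were lower as well.

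The microfibril-associated glycoproteins Mfap2 and Mfap5 stayed within 2-fold throughout. Mfap2 had 29.0 FPKM in the OVA+PM10 sample, 50.5 in the PM10 sample and 38.0 in the control sample, and Mfap5 had 16.8, 14.0 and 16.1 FPKM. Loxl2, another lysyl oxidase, had 6.49, 7.32 and 7.77 FPKM. Between the exposed samples, 2 of the 24 were higher in OVA+PM10, Ltbp4 and Emilin1, which encodes a glycoprotein at the surface of elastic fibres (21.8 against 9.22 FPKM). In that comparison 5 were lower, namely Efemp1, Adamts10, Ltbp2 (4.37 against 10.3 FPKM), Vtn (vitronectin, 4.82 against 18.4 FPKM) and Mfap1a, a splicing factor despite its name (0.858 against 2.90 FPKM). Of all genes, 11.8% were higher and 9.00% lower there.

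Of a list of 15 elastases and other proteases, 10 were measured for PM10 over control. Of these, 6 were at least 2-fold higher and none lower, with a median of 1.25, where 13.6% of all genes were higher. The protease counts were not made with libraries scaled to the same sum, where the median gene lies at -1.03 for PM10 over control. The macrophage elastase Mmp12 stood at 90.9 FPKM in the OVA+PM10 sample, 136 in the PM10 sample and 1.30 in the control sample. The elastolytic cathepsin Ctss stood at 577, 906 and 182 FPKM, and the lysosomal protease Ctsd at 543, 1220 and 395 FPKM. Ctsk, Ctsl and Ctsb were the other 3. The gelatinase Mmp2 was within 2-fold, at 32.3, 21.0 and 30.1 FPKM. Against control, the OVA+PM10 sample had 4 of 11 higher (Mmp12, Ctsk, Ctss and Prtn3, the neutrophil proteinase, at 1.63 against 0.286 FPKM), none lower and 7 within 2-fold, where 9.95% of all genes were higher. Neutrophil elastase, Elane, was listed at 0 in the PM10 and control libraries and had 0.25 FPKM in the OVA+PM10 sample. Of 12 macrophage markers, 7 were at least 2-fold higher and 1 lower for OVA+PM10 over control, and 4 higher and none lower for PM10 over control; their part in the protease values was not tested.

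The inhibitors went both ways. Timp1, an inducible inhibitor of metalloproteinases, had 43.1 FPKM in the OVA+PM10 sample, 16.9 in the PM10 sample and 3.98 in the control sample. Timp3, an inhibitor bound to the matrix, had the opposite order, with 57.2, 106 and 174 FPKM. Slpi, an inhibitor of neutrophil elastase from airway epithelium, had 576, 132 and 315 FPKM. In all, 4 of 11 measured inhibitors were higher and 2 lower for PM10 over control, and 1 of 9 higher and 2 lower for OVA+PM10 over control. Over all genes, 13.6% were higher and 13.9% lower for PM10 over control, and 9.95% and 8.68% for OVA+PM10 over control. The same shares apply to the counts of the TGF-beta pathway that follow. Of 15 measured genes of the TGF-beta pathway, which drives elastin expression in fibroblasts, none was higher in either comparison with control; 3 were lower for PM10 (Tgfb1, Tgfbr3 and Smad3, median of the list -0.79) and 4 for OVA+PM10 (Tgfbr3, Smad7, Ctgf and Itgb6, median -0.64). The ligand Tgfb1 had 44.4 FPKM in the OVA+PM10 sample, 17.2 in the PM10 sample and 38.0 in the control sample. Tgfbr3 and Smad3 have long transcripts (6087 and 5090 bases) and Tgfb1 a shorter one (2573 bases). Among all genes in their length classes, the median log2 ratio for PM10 over control was -0.49, -0.27 and 0.19 in that order. The values of this list are not corrected for the trend over length, and its part in their medians was not tested.

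Markers of the cells that make elastic fibres also differed among the libraries, and in a homogenate fewer cells of a type cannot be told apart from less RNA per cell. Of 20 fibroblast markers, 4 were at least 2-fold higher and 8 lower for PM10 over control, 2 higher and 9 lower for OVA+PM10 over control, and 9 higher and 4 lower for OVA+PM10 over PM10. Shares of all genes were 13.6% and 13.9%, 9.95% and 8.68%, and 11.8% and 9.00% in the same order, also for the marker counts below. Dcn, which encodes the collagen-binding proteoglycan decorin, had 91.8 FPKM in the OVA+PM10 sample, 8.40 in the PM10 sample and 246 in the control sample. Col1a1, a chain of type I collagen, had 135, 13.1 and 52.5 FPKM, and Pi16, a marker of adventitial fibroblasts, 21.0, 2.13 and 18.1 FPKM. These 3 were lowest in the PM10 sample, as Fbln1, Fbln2 and Fbn1 were. Tcf21 and Inmt, markers of alveolar fibroblasts chosen for mention after their values were seen, were highest there, with Tcf21 at 54.7, 160 and 79.1 FPKM and Inmt at 827, 4513 and 1771 FPKM. Other genes of alveolar fibroblasts in the list were highest in the control sample instead, among them Npnt at 30.8, 57.1 and 84.7 FPKM, Itga8 at 14.4, 23.1 and 44.0 FPKM and Pdgfra at 17.3, 22.0 and 50.5 FPKM. Mfap4, Fbln5, Efemp2, Lox and Loxl1 were also highest in the PM10 sample. Tcf21 and Inmt have short transcripts (1788 and 1077 bases), and Npnt, Itga8 and Pdgfra longer ones (4619, 5812 and 6834 bases). Among all genes in their length classes, the median log2 ratio for PM10 over control was 0.59, 1.08, -0.27, -0.49 and -0.77 in that order. The marker values are not corrected for this trend, and its part in their split was not tested. What the balance of fibroblast types contributed to the elastic fibre genes was not tested.

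Of 15 smooth muscle and pericyte markers, 1 was higher and 9 lower for PM10 over control (median -1.35), 1 higher and 3 lower for OVA+PM10 over control (median 0.01), and 8 higher and 1 lower for OVA+PM10 over PM10 (median 1.30). Acta2, smooth muscle actin, had 202 FPKM in the OVA+PM10 sample, 32.0 in the PM10 sample and 82.8 in the control sample, and Myh11, smooth muscle myosin, had 68.7, 8.37 and 42.1 FPKM. Elastin did not share the low values of these genes in the PM10 sample: its ratio to Acta2 was 0.397 in the OVA+PM10 sample, 2.57 in the PM10 sample and 0.458 in the control sample, and its ratio to Col1a1 was 0.596, 6.29 and 0.723. Measured against the median of the fibroblast and smooth muscle markers together, 6 elastic fibre genes were at least 2-fold higher for PM10 over control and 2 lower. That setting adds the same amount to every gene, and 50.6% of all genes were then higher and 3.86% lower, a share to read the 6 of 9 against. Of 14 endothelial markers, 8 were lower and none higher for OVA+PM10 over control (median -1.14), and 3 were higher and 2 lower for PM10 over control (median 0.12); Fbln5 was low in the same library, and their part in its value was not tested.

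**Figure D4:**
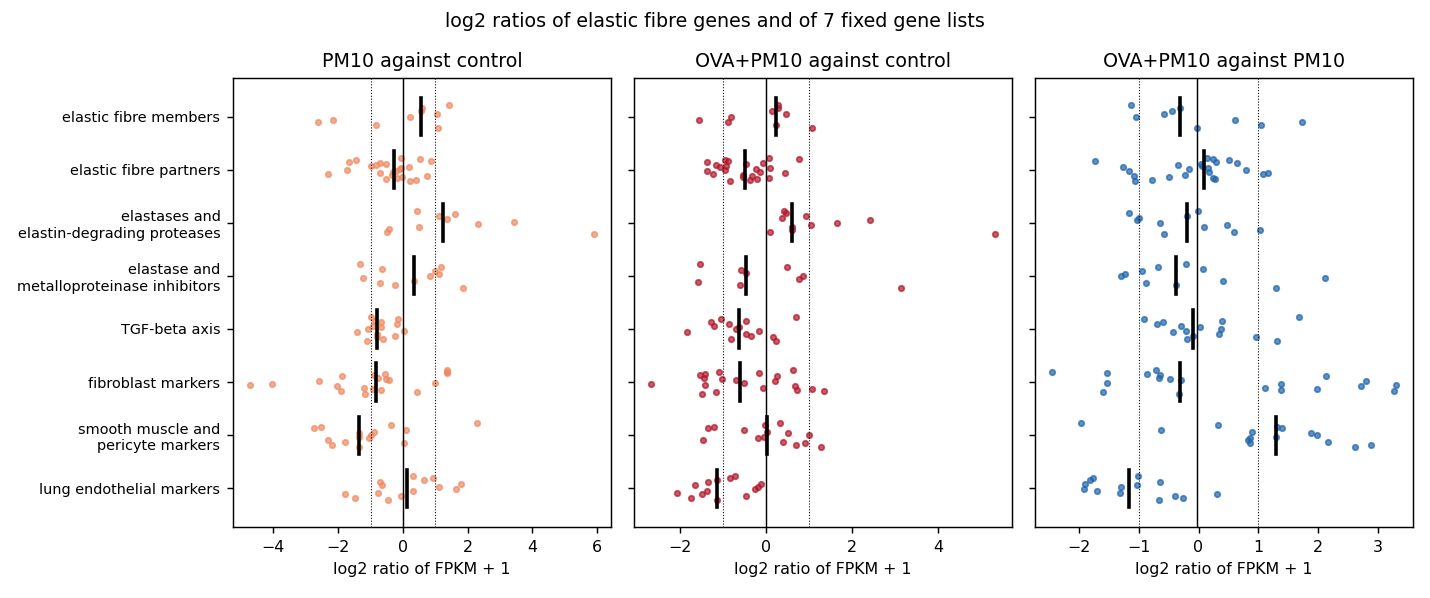
Log2 ratios of FPKM + 1 for the elastic fibre genes and 7 fixed lists in 3 comparisons, 1 point per gene with at least 1 FPKM in either library, with the list's median (black bar), the median gene (thin line) and the 2-fold thresholds (dotted). For PM10 over control the elastic fibre genes have a median of 0.57, the smooth muscle and pericyte markers one of -1.35 and the proteases one of 1.25; scaled to the same sum the elastic fibre median is -0.61.

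The 5 genes whose pair of ratios to control lay nearest to that of Eln, among 7546 genes with at least 10 FPKM in any library, were Hsp90b1, Nudt8, Metrnl, Spcs2 and Akr7a5. The nearest, Hsp90b1, a chaperone of the endoplasmic reticulum, had 419 FPKM in the OVA+PM10 sample, 445 in the PM10 sample and 206 in the control sample, at a distance of 0.04 on the log2 scale. The likeness rests on 3 libraries, and none of the 5 is an elastic fibre gene.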

How the data were processed

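RNA of lung homogenates was sequenced in 3 libraries, 1 per group, from strand-preserving libraries per the labels' protocols. The deposited values are FPKM, a unit inferred from the values since no header names it. TopHat and mm10 were used per the submitters' processing notes; the counting program, gene lengths and use of strand are not stated in any source used here. Values were used as deposited.

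Libraries were compared in pairs by the log2 ratio of FPKM + 1 (Python 3.11.15, pandas 2.3.3, numpy 2.4.6), which understates changes of low genes. A gene counted as higher or lower at 2-fold or more where the higher of both libraries reached 1 FPKM. Without replicates no test was made. The elastic fibre genes, the 16 gene lists and the settings were chosen with earlier results of these data known. Named were all 10 genes, the 3 genes per list with the largest ratios among those at 5 FPKM or more, partners with at least 5 FPKM, and the 5 genes nearest to Eln, of which not all are printed; Tcf21, Inmt, Npnt, Mmp2, Prtn3, Elane, Ctsb, Mfap1a, Mus81, Mapk7 and other members of counts of 5 or fewer lay outside this and were chosen after their values were seen. Transcript lengths (longest transcript) came from GENCODE M21 on GRCm38, matched by symbol for 22148 genes, or 95.5%; the length trend is a running median over 501 genes. Depth was estimated from the FPKM of 1 read in single-transcript genes (0.065, 0.075 and 0.051 per kilobase in the OVA+PM10, PM10 and control libraries) and is approximate. The code was tested on simulated data with known changes.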

Additional observations from a re-analysis of the deposited data

How the results depend on the processing

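Each comparison was recomputed under 11 other settings. For PM10 over control the count of elastic fibre genes at least 2-fold lower stayed at 2 or 3 in all of them. The count higher, 3 as reported, was 0 at a 4-fold threshold, 0 scaled to the same sum, 1 scaled by the median ratio, 1 with the length trend removed and 6 relative to the fibroblast and smooth muscle markers, a setting under which 50.6% of all genes were higher. The median, 0.57, was -0.61 scaled to the same sum and 1.57 relative to those markers. Eln (-0.13) and Efemp2 (-0.15) changed sign scaled to the same sum.

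For OVA+PM10 over control, the single higher gene was lost (count 0) with 5 FPKM added, at 4-fold and scaled to the same sum. The single lower gene became 0 with 5 FPKM added and at 4-fold, and 3 at 1.5-fold and scaled to the same sum. The median, 0.23, was -0.39 scaled to the same sum.

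For OVA+PM10 over PM10, the count higher, 2 as reported, was 1 with 5 FPKM added, 0 at 4-fold, 1 with the length trend removed and 0 relative to the markers. The count lower, 2 as reported, was 1 with 5 FPKM added, 0 at 4-fold, 0 scaled to the same sum, 1 scaled by the median ratio, 1 with the length trend removed and 5 relative to the markers, when 46.5% of all genes were lower. The median, -0.32, was 0.26 scaled to the same sum and -1.22 relative to the markers. At 4-fold the threshold itself lowers the counts. The marker setting moves every gene by the same amount, and scaling to the same sum or by the median ratio moves genes nearly alike. Adding 5 FPKM to each value shrinks every ratio. For the other settings the cause was not tested. Values of 1 FPKM or less rest on few reads where transcripts are short. No paired analysis was possible because each group has 1 library.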
